A study of Mus musculus with 10 samples.

Results

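The 8 genes followed here are tied to the birth and upkeep of striatal cholinergic neurons. They were traced through every library of the series: the transcription factor genes Lhx8, Isl1, Gbx2, Lhx6, Nkx2-1, Zic1 and Zic4, and AI606473, a long non-coding RNA gene that starts beside Lhx8. They were taken by symbol, 8 of the 32531 genes counted in each library, and all 8 were found in all 10 libraries. The list was drawn up with the ratio of immunopurified to input RNA already known, so that ratio is given here as a description and carries no test.

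The study measured ribosome-bound RNA by translating ribosome affinity purification. The animals were adult mice of the line Chat-TRAP DW167, in which the ribosomal protein Rpl10a is fused to EGFP in cells that express choline acetyltransferase (Chat), the enzyme that makes acetylcholine. Whole striatum was dissected, tagged polysomes were captured with antibodies to EGFP, and the RNA was sequenced. The immunopurified libraries form 3 groups of 3: mice that self-administered saline, mice that self-administered cocaine, and yoked controls. The labels do not say what the yoked animals received, or whether a library holds 1 animal or a pool. One input library holds the total striatal RNA of saline animals before capture. Every library, controls included, came from the tagged line, so the tag and its Chat-driven expression are shared by all groups and no untagged capture was compared here.

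Reads assigned to genes numbered from 24526765 to 75220922 in the 9 immunopurified libraries and 40912230 in the input. Levels are given as CPM, the reads of a gene scaled to the same total of assigned reads in every library, which are not divided by transcript length and therefore rank no gene against another. The captured RNA held the markers of the labelled cell type: 6 cholinergic marker genes summed to between 3334 and 4571 CPM in the 9 captured libraries, and to 72.6 CPM in the input. The summed level of 10 marker genes of spiny projection neurons, the main cell type of the striatum, was 598 to 1422 CPM after capture and 6842 CPM before it. The saline libraries were run in lane 3, the cocaine and yoked libraries in lane 4 and the input in lane 5, so a lane and a group cannot be told apart in any comparison with saline or with the input. In such bulk RNA, fewer cells of a type and less RNA per cell also cannot be told apart.

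Striatal cholinergic neurons are the large interneurons that supply the striatum with acetylcholine. They arise in the embryonic ventral forebrain, where Nkx2-1 sets up the medial ganglionic eminence and switches on the LIM homeodomain genes Lhx6 and Lhx8. Neurons that hold Lhx8 and gain Isl1 become cholinergic. The proteins of those genes sit together on the adaptor protein Ldb1 and drive the genes for making, loading and recycling acetylcholine, while Lhx6 without Lhx8 goes with the GABAergic fate of somatostatin and parvalbumin interneurons. Gbx2 acts in the same precursors as they mature, and Zic1 and Zic4 encode zinc finger factors of septal and neighbouring progenitors.

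Lhx8 and AI606473 are read away from each other on mouse chromosome 3, and the stretch between their starts is shown because both genes were among the most enriched of all genes. In the RefSeq annotation of GRCm38.p6, Lhx8 spans 154306288 to 154330560 on the minus strand, AI606473 spans 154330821 to 154334687 on the plus strand, and 260 bases separate the starts. The 250 bases before the start of AI606473 lie entirely in that gap. The 250 bases before the starts of Isl1, a factor with a smaller ratio to input, and of Nkx2-1, the upstream regulator, are given too. Each is written 5′ to 3′ on the strand of its gene, with CpG dinucleotides in capitals.
AI606473, chr3:154330571-154330820, plus strand: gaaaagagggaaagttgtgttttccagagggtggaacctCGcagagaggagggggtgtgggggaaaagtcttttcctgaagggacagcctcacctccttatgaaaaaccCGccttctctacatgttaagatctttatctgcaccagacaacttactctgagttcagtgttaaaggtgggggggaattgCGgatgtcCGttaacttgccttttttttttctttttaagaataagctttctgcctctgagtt
Isl1, chr13:116309689-116309938, minus strand: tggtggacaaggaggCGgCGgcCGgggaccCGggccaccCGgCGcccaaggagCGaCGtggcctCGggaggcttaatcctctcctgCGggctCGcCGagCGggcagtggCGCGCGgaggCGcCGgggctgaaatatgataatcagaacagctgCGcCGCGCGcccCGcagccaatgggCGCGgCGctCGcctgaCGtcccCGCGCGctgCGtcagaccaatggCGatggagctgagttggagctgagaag
Nkx2-1, chr12:56536909-56537158, minus strand: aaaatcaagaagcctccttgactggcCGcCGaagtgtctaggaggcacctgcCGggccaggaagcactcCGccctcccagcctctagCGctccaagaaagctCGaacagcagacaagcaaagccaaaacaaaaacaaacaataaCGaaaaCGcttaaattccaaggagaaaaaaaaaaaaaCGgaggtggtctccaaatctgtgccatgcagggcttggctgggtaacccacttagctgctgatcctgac

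The stretch between Lhx8 and AI606473 holds 4 CpG dinucleotides and is 45.2% G and C, where the medians over 32851 such stretches before RefSeq gene starts are 6 CpG and 52.4%. The stretch before Isl1 is of the other kind, with 33 CpG and 71.2% G and C, and 96.0% of stretches hold fewer CpG. The one before Nkx2-1 lies between them, at 9 CpG and 50.8%. The core letters of homeodomain sites, TAAT read on either strand, occur in 54.9% of all stretches, at 2 places in the one before Isl1 and in neither of the others. In windows of 300 bases, 250 before and 50 after a start, CpG numbered 4 for Lhx8, 6 for AI606473, 8 for Zic4 and 12 for Nkx2-1. The windows of Lhx6 held 11 to 17, that of Gbx2 27, that of Zic1 31 and that of Isl1 37. The CpG count thus did not follow the ratio to input, which was 22.3-fold for Zic1 and lowest for Lhx6. All these are counts of letters in fixed windows, and binding was not measured.

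Lhx8, the LIM homeodomain factor that cholinergic neurons need to become and stay cholinergic, was abundant in every captured library and rare in the input. Its level was 648, 726 and 603 CPM in the saline libraries, 673, 591 and 589 CPM in the cocaine libraries, and 666, 718 and 542 CPM in the yoked libraries, against 17.6 CPM in the input. The 3 groups overlapped fully, and the lowest captured library was still far above the input. On the log2 scale the saline ratio to input was 5.23 ± 0.13 (SD, n = 3), a 37.4-fold difference, which placed Lhx8 69th of 15888 genes with a ratio. The ratios were 35.1-fold in the cocaine group and 36.3-fold in the yoked group. A ratio was computed for genes with at least 20 counts in the input or in the mean saline library, with 0.5 counts added to each library.

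AI606473, like its neighbour Lhx8, was above the input in every captured library, and it was further enriched. Its level was 137, 115 and 113 CPM with saline, 149.6, 99.5 and 102 CPM with cocaine, and 129, 135 and 105 CPM in the yoked group, against 1.44 CPM in the input. Replicate 1 of the cocaine group held the most and replicate 2 of that group the least. The saline ratio to input was 83.2-fold (log2 6.38 ± 0.16, SD, n = 3), 27th of the 15888 genes. That figure rests on 59 input reads, and pooling the saline reads gave a ratio of 83.0 with a 95% counting interval of 64.3 to 109. The interval for Lhx8, from 718 input reads, ran from 34.6 to 40.2 and lay wholly below it.

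Seen as a pair, the same difference appears as more AI606473 per Lhx8 after capture than before it. The saline libraries held 21.1, 15.8 and 18.7 AI606473 reads per 100 Lhx8 reads, the cocaine libraries 22.2, 16.8 and 17.4, and the yoked libraries 19.4, 18.8 and 19.3. The input held 8.22, with a 95% counting interval of 6.19 to 10.7, below the interval of each captured library. Group means were 18.5 ± 2.67, 18.8 ± 2.96 and 19.2 ± 0.297 (SD, n = 3), so the treatment groups differed by less than the spread between libraries. These are shares of reads and not of molecules, since transcript length was not used. Slc44a5, the next gene on the other side of Lhx8, went the opposite way: it stood at 16.4 CPM in the input and between 0.279 and 5.24 CPM after capture (saline log2 ratio -2.65 ± 0.63).

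**Figure D1:**
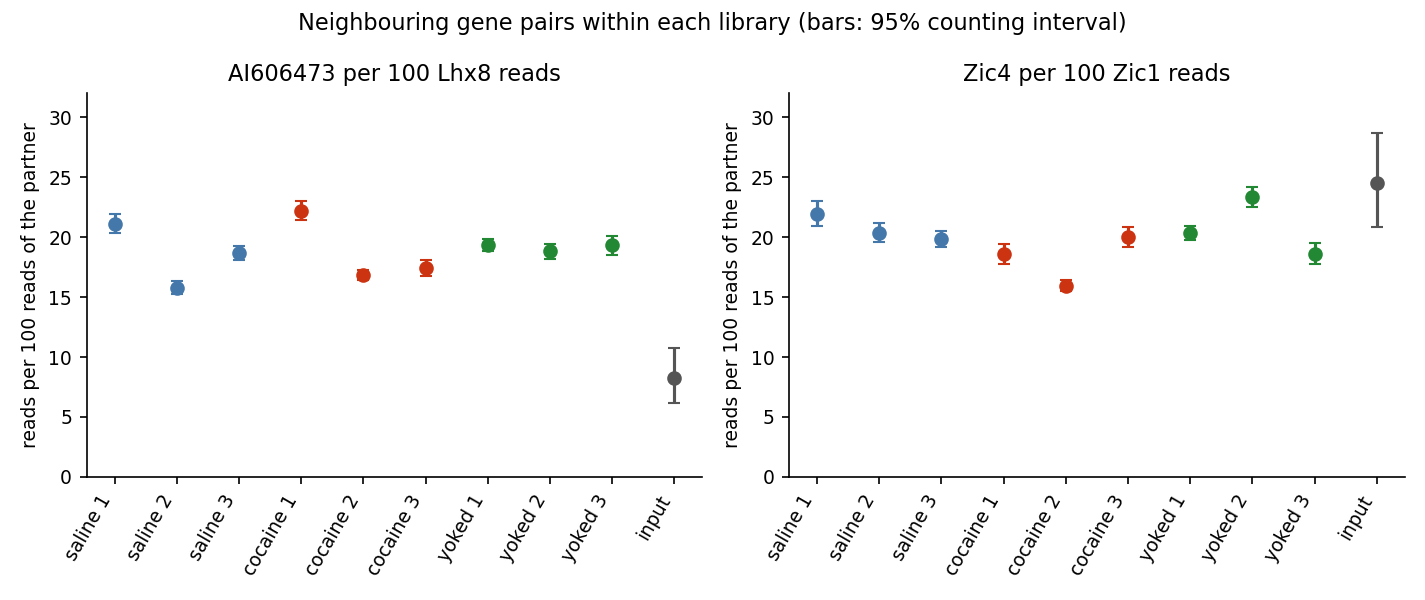
Reads of AI606473 per 100 Lhx8 reads (left) and of Zic4 per 100 Zic1 reads (right) in each of the 10 libraries, coloured by group, with 95% counting intervals. For the first pair the input, at 8.22, lies below all 9 captured libraries, which run from 15.8 to 22.2; for the second the input, at 24.5, overlaps the upper end of the captured libraries.

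Isl1, the partner of Lhx8 in the cholinergic programme, was enriched far less. It measured 136, 89.7 and 105 CPM with saline, 118, 114 and 117 CPM with cocaine, and 125, 121 and 117 CPM in the yoked group, and 19.3 CPM in the input. The cocaine and yoked libraries were nearly level, with SDs of 2.18 and 3.95 CPM, while the saline libraries spread over 23.9 CPM (SD, n = 3) and enclosed all the others. The saline ratio was 5.61-fold (log2 2.49 ± 0.31), 491st of 15888. Isl1 is also made by some spiny projection neurons as they develop, and the summed spiny markers were highest in saline replicate 1 (1422 CPM) and lower in saline replicates 2 and 3 (646 and 598 CPM), although saline replicate 3 held more Isl1 than saline replicate 2. In the cocaine group those markers summed to 1288, 612 and 1027 CPM beside nearly level Isl1, and in the yoked group to 1122, 848 and 1099 CPM. Their part in the Isl1 values was not tested.

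Gbx2, a homeodomain gene of maturing cholinergic precursors, was close to the floor of detection in these adult libraries. It had 13, 6 and 42 reads in the saline libraries, 15, 12 and 12 with cocaine, and 24, 21 and 16 in the yoked group, and 1 read in the input. In CPM this is 0.160 to 0.998 after capture and 0.0244 before it. The saline log2 ratio was 3.71 ± 1.15 (SD, n = 3), 13.1-fold, with 5.64-fold to 27.5-fold in single libraries. It was 2.88 with 2 counts added and 3.17 to 4.31 with 1 saline library left out. The pooled saline ratio, with no counts added, was 25.2 with a 95% counting interval of 4.35 to 1010, and Gbx2 had a ratio at all only because its captured counts passed the count minimum. Its neighbour Agap1, with 228 CPM in the input, had a saline ratio of 1.01.

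Nkx2-1, the regulator at the head of the lineage, remained present in adult captured RNA. It measured 85.1, 88.4 and 96.5 CPM with saline, 86.3, 135 and 83.0 CPM with cocaine, 73.3, 77.1 and 76.7 CPM in the yoked group, and 6.48 CPM in the input. The yoked libraries were the 3 lowest, and replicate 2 of the cocaine group stood well above all others. The saline ratio was 13.9-fold (log2 3.79 ± 0.09, SD, n = 3), 182nd of 15888.

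Lhx6, its target, which without Lhx8 goes with the GABAergic fate, was the least enriched of the 8 genes. It measured 175, 117 and 96.0 CPM with saline, 162, 199.6 and 114 CPM with cocaine, 151, 98.2 and 126 CPM in the yoked group, and 29.6 CPM in the input. All groups overlapped, and every captured library was above the input. The saline ratio was 4.22-fold (log2 2.08 ± 0.44, SD, n = 3), with a range from 3.24 to 5.90. Markers of other striatal interneurons, a list of 12 genes that includes Sst, Cck and Th, summed to 363 CPM in the input and to 32.5 to 63.1 CPM after capture. All but Th were lower in the saline mean than in the input, while Th stood at 7.03 CPM against 3.62 CPM in the input. Calb2, Chodl, Cort and Htr3a were at 0 in some captured libraries. Sst itself averaged 11.2 CPM in the saline libraries and 97.1 CPM in the input.

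Zic1 and Zic4 encode related zinc finger factors and are read away from each other on chromosome 9, where their annotated spans share 138 bases. Reads from that stretch cannot be assigned without strand, and the strand setting of the counting is not given in the sources used here. Zic1 measured 374, 456 and 463 CPM with saline, 501, 537 and 431 CPM with cocaine, and 458, 499 and 404 CPM in the yoked group, against 19.3 CPM in the input. Zic4 measured 82.0, 92.8 and 92.0 CPM with saline, 93.0, 85.8 and 86.1 CPM with cocaine, and 93.2, 117 and 75.1 CPM in the yoked group, against 4.72 CPM in the input. For both genes the 3 groups overlapped.

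The saline ratios were 22.3-fold for Zic1 (log2 4.48 ± 0.17, SD, n = 3) and 18.8-fold for Zic4 (4.23 ± 0.10). The ratio of Zic1 was above that of Zic4 in 9 of 9 captured libraries, but the counting intervals of the pooled saline ratios, 21.2 to 24.4 and 16.5 to 22.03, overlapped, since the input held only 193 Zic4 reads. Zic4 reads per 100 Zic1 reads were 16.0 to 23.4 after capture and 24.5 (interval 20.8 to 28.7) before it. Zic genes are also known from the meninges. A list of 7 markers of meningeal fibroblasts summed to 0.0636 to 3.30 CPM with saline, 0.545 to 2.44 CPM with cocaine, 0.461 to 2.02 CPM in the yoked group and 21.5 CPM in the input, and 6 of the 7 were at 0 in at least 1 captured library. Markers of ependyma and choroid plexus summed to 15.5 CPM in the input. After capture they reached 93.3 CPM in saline replicate 3, and ran from 6.41 to 8.85 CPM with cocaine and 4.68 to 21.8 CPM in the yoked group. The part of such cells in the Zic values was not tested.

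**Figure D2:**
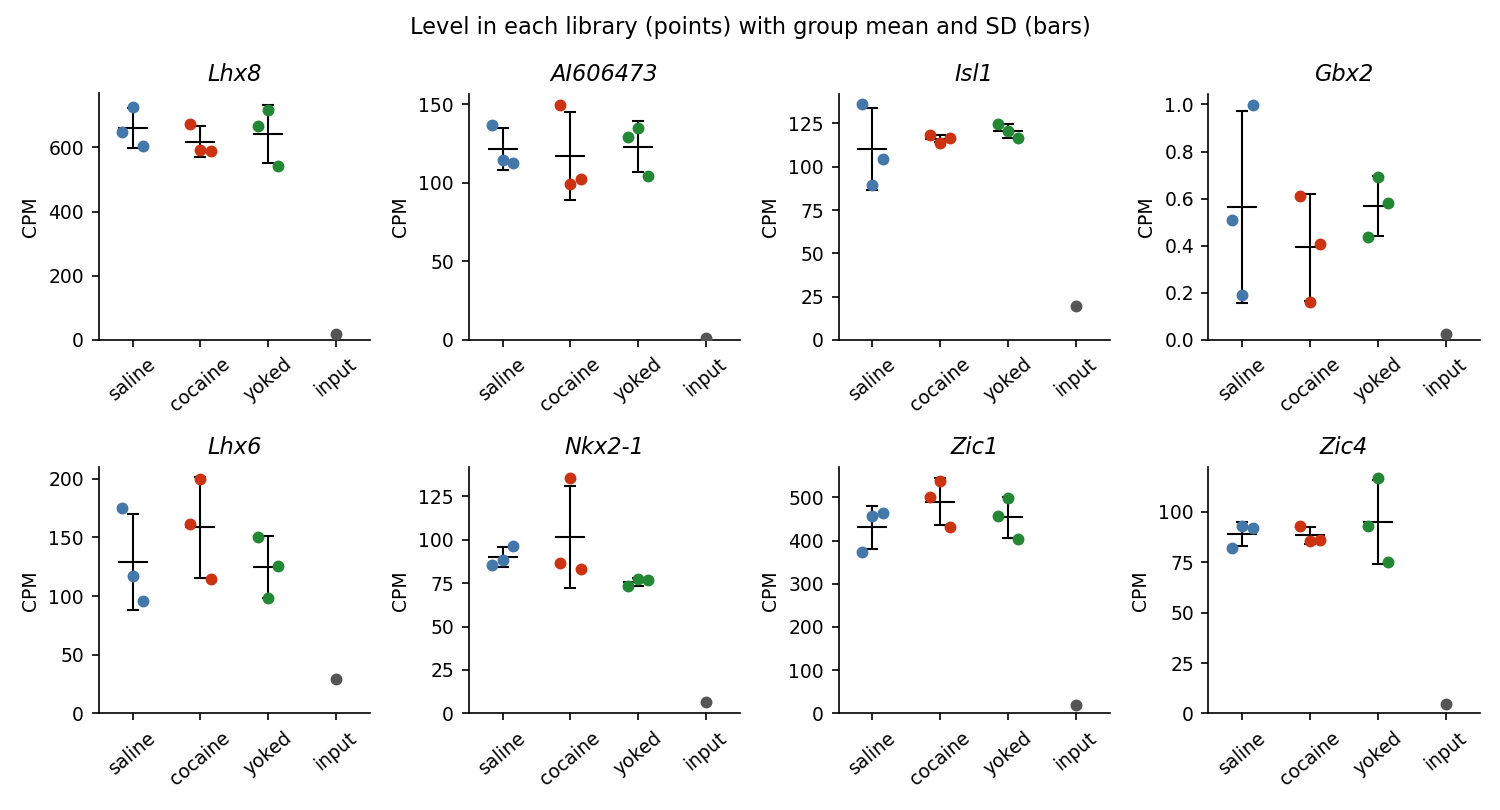
Level of each of the 8 genes in CPM (linear axes from 0) in the saline, cocaine, yoked and input libraries; points are libraries and bars are the group mean and SD (n = 3). Every captured library is above the input for all 8 genes, and the treatment groups overlap except for Nkx2-1, whose yoked libraries (73.3 to 77.1 CPM) are below the others.

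Set in one order by their saline ratio, the 7 genes with at least 20 input reads ran AI606473, Lhx8, Zic1, Zic4, Nkx2-1, Isl1 and Lhx6. That order recurred in 8 of the 9 captured libraries. In the exception, replicate 2 of the cocaine group, Nkx2-1 stood above Zic4 and Lhx6 above Isl1. Isl1 and Lhx6 were not separated beyond their spread (2.49 ± 0.31 and 2.08 ± 0.44), whereas the gap between Nkx2-1 and Isl1 was larger than both SDs. Of the 8 genes, 7 were at least 4-fold above the input in all 3 saline libraries, where 3.56% of all 15888 genes were, and the same number was so in all 9 captured libraries, where 2.56% of genes were. Lhx6 was the exception in both counts. The 7 include Gbx2, which had 1 input read and passed the count minimum only through its captured counts. Its place among the 7 was therefore favoured by that minimum. The saline count was 6 with 2 counts added to each library, and also 6 with totals that leave out the 50 genes highest in the input. Since the list was chosen on this ratio, these shares describe it and support nothing further. The median log2 ratio of all genes was -0.19.

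**Figure D3:**
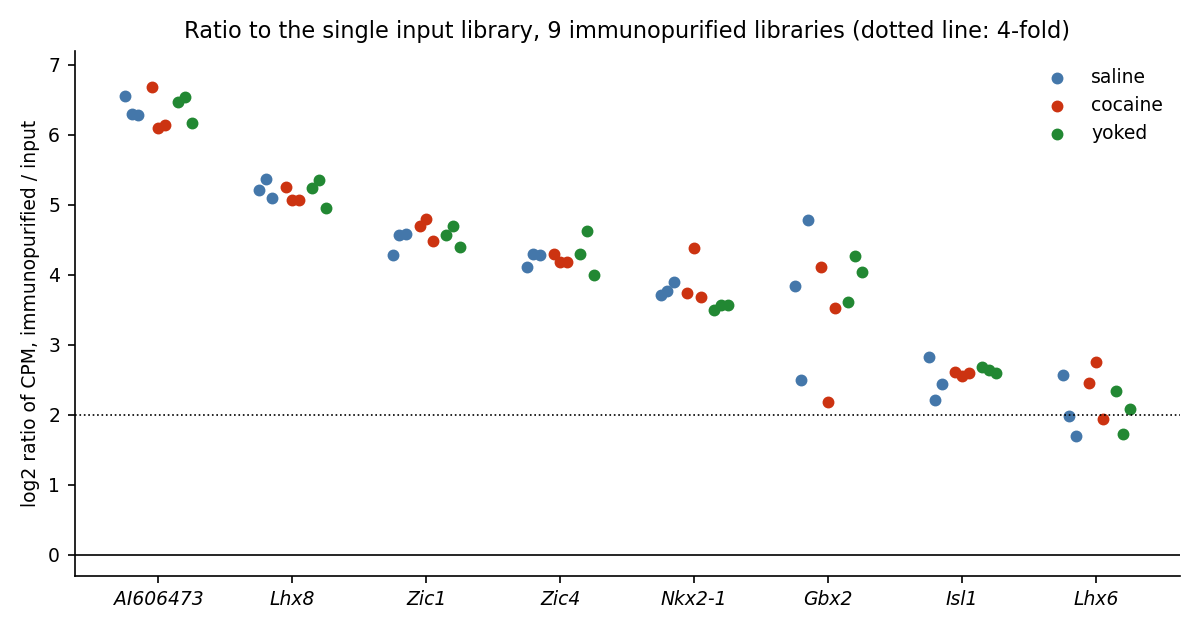
Log2 ratio of CPM to the single input library for each of the 9 captured libraries, coloured by treatment group; the dotted line marks 4-fold. AI606473 and Lhx8 lie highest (saline means 6.38 and 5.23), Isl1 and Lhx6 lowest (2.49 and 2.08), and Gbx2, with 6 to 42 reads a captured library, scatters most.

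The genes with the most similar profile over the 10 libraries were found by the root mean square difference of centred log2(CPM + 0.5) values, among 10219 genes with at least 20 input reads and a mean of 5 CPM after capture. The step between input and captured RNA is a large part of this measure, so genes with a similar ratio to the input tend to come out nearest. The nearest genes to Lhx8 (37.4-fold) had saline ratios of 39.6, 35.3 and 41.8. The 8 genes were chosen with that ratio known, so the likeness is a description and carries no test. For Lhx8 the nearest was Slc5a7 (difference 0.17), the transporter that returns choline to the nerve ending, followed by Tacr3, a neurokinin receptor gene, and Gm4980. For AI606473 the nearest were Chat (0.27), Lhx8 itself (0.28) and Slc10a4 (0.29), the gene of a vesicle protein of cholinergic neurons. Zic1 was nearest to Pde3a (0.065), a phosphodiesterase gene, then Serpinf1 (0.13) and Zic4 (0.19), and Zic4 to 9330158H04Rik (0.12), Serpinf1 (0.15) and Zic1.

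Nkx2-1 was nearest to Chrm2 (0.17), which encodes a muscarinic acetylcholine receptor, then to Baiap2l2 and Clstn2. Isl1, at a lower ratio, was nearest to Hcfc1r1 (0.12), Map1lc3a (0.12) and Mea1 (0.15), and Lhx6 to Pantr1 (0.23), Ndufb7 and Gng2. The values of Gbx2 are so low that the added 0.5 flattens them, and its nearest genes, Tmem192, Myg1 and Tmco1, had saline ratios of only 1.60 to 1.80.

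Relatives of these factors went both ways in the capture, and many had too few reads for a ratio. The Zic genes with a ratio lay above the input, and the Nkx genes other than Nkx2-1 below it. Of 12 LIM homeodomain genes, 6 had enough reads for a ratio to the input. Of these, 3 (Lhx8, Isl1 and Lhx1) were at least 4-fold above the input in all 3 saline libraries. Among all 15888 genes that share was 3.56%. Lhx8 and Isl1 were chosen with this ratio known, so the share describes the list and supports nothing further. Lhx1 had 2 input reads (pooled ratio 13.2, 95% counting interval 3.51 to 111). Like Gbx2, it had a ratio only because its captured counts passed the count minimum. Lhx2, a factor of cortical progenitors, stood at 32.1 CPM in the input and at 2.98 ± 0.894 CPM (SD, n = 3) with saline, a log2 ratio of -3.46 ± 0.42. Lhx9 was also lower, with some captured libraries at 0 reads.

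In the Zic family, Zic2 was 2.72-fold above the input (7.82 ± 2.08 CPM, SD, n = 3, against 2.81 CPM in the input), and Zic5 had too few reads for a ratio. Among 10 genes of the Nkx2 and Nkx6 families, 4 had a ratio, and apart from Nkx2-1 these were lower: Nkx2-2, a gene of oligodendrocyte lineage cells, had a log2 ratio of -4.87 ± 0.47, Nkx6-2 one of -4.67 ± 2.55 and Nkx2-9 one of -1.88 ± 1.23. Of the 2 Gbx genes, Gbx1 had 3 input reads and no ratio.

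Of the adaptors on which LIM homeodomain proteins assemble, Ldb1 was near parity and Ldb2 lower. Of 10 cofactor and LIM-only genes the highest were Ssbp2 (1.24-fold), Ldb1 (1.22-fold) and Ssbp3 (1.19-fold), and none reached 4-fold. The LIM-only genes Lmo3 and Lmo1, whose proteins compete for Ldb1, and Ldb2 were lowest, at log2 ratios of -3.83 ± 0.57, -3.02 ± 1.31 and -1.97 ± 0.39. Lmo1 and Nkx6-2 had captured libraries at 0 reads, so their ratios depend on the counts added.

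A list of 28 other ventral forebrain and interneuron factors had a median log2 ratio of -3.40 over the 27 with a ratio, and 18 of them were at least 4-fold lower in all 3 saline libraries, where 2017 of the 15888 genes were. Dlx5, a homeodomain gene of the interneuron lineage, was 1.45-fold higher (37.9 ± 7.75 CPM, SD, n = 3, against 25.8 CPM in the input), and Dlx6 had a log2 ratio of -0.71. Olig2 (-5.39 ± 3.13), Sp8 and Otx2 were lowest, the last 2 with captured libraries at 0 reads.

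The genes that Lhx8 and Isl1 are known to drive were enriched together. All 7 of a list of cholinergic genes were at least 4-fold higher in all 3 saline libraries, with a median log2 ratio of 5.76. Among all 15888 genes, 3.56% were that much higher. This list too was chosen with earlier results of these data known, so its share is a description. Slc18a3, the vesicular acetylcholine transporter gene, stood at 104-fold, Slc10a4 at 54.6-fold and Chat at 54.2-fold. Slc5a7 (39.6-fold), Ache, the acetylcholinesterase gene (27.0-fold), and Ngfr (17.8-fold) were lowest. Ngfr varied most, from 9.62 to 196 CPM over the captured libraries.

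**Figure D4:**
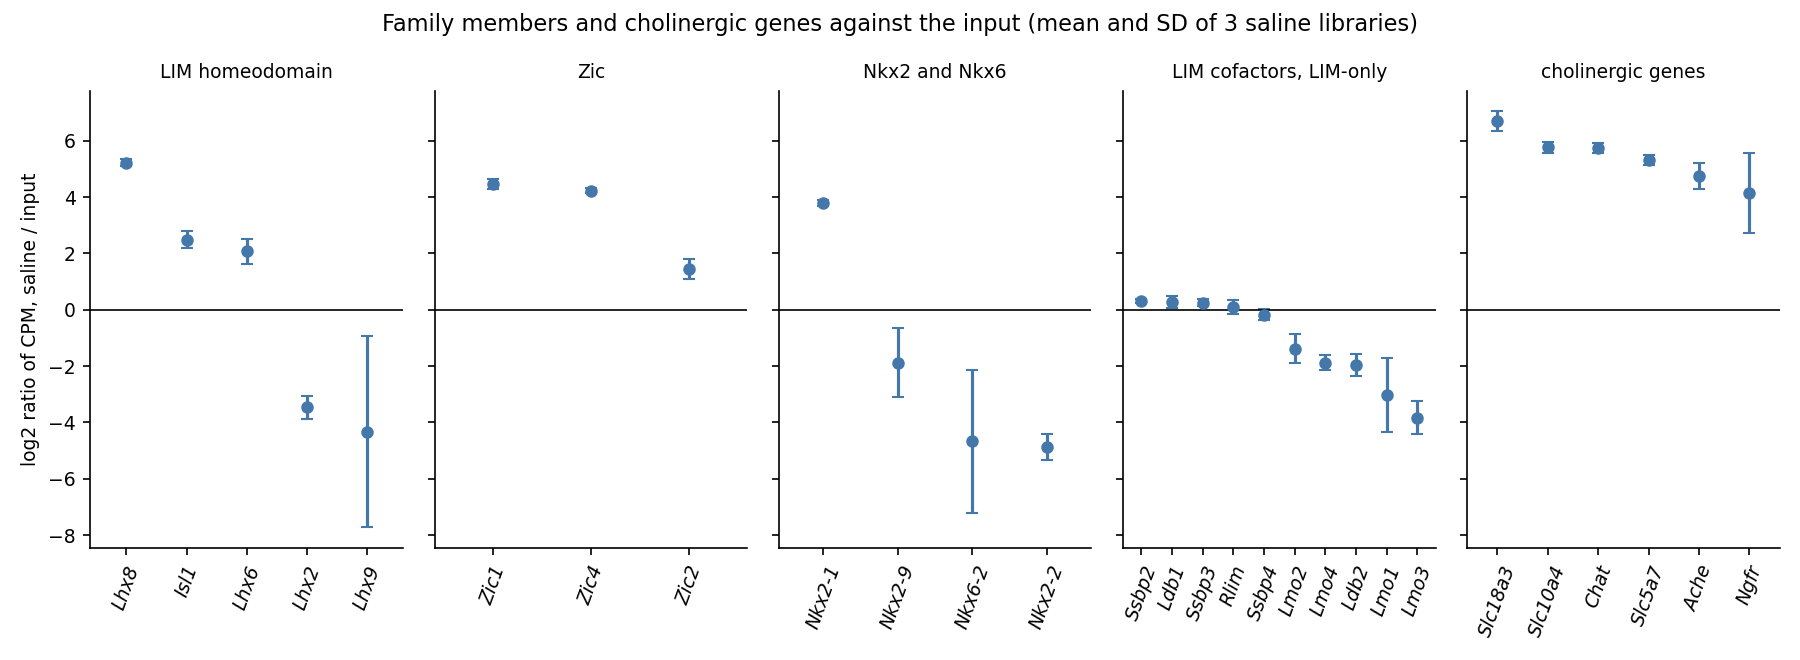
Log2 ratio of CPM, saline libraries over the input (mean and SD, n = 3), for the genes reported here from 5 lists that had a ratio and more than 3 input reads; the line marks equal levels. In the LIM homeodomain and Nkx panels a few genes lie high and the rest below 0, in the Zic panel all genes shown lie above 0, the LIM cofactors do not exceed 0.31, and the cholinergic genes shown lie above 4.

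The treatment comparisons ask whether the lineage factors differed in ribosome-bound RNA between mice that took cocaine, mice that took saline and yoked controls. None of the 8 genes passed the test in any of the 3 comparisons. edgeR's quasi-likelihood test on the counts of the 9 captured libraries called 0 of 14989 genes at an adjusted p of 0.05 in each comparison (0.0% called), with smallest Benjamini-Hochberg adjusted p-values of 0.850 when cocaine was set against saline, 0.9997 when it was set against yoked, and 0.9993 between the yoked and saline groups. At an unadjusted p of 0.05 it passed 5.28% (791), 2.61% (391) and 2.18% (327) of genes. DESeq2 also called 0 in each. Without the filter on low counts edgeR called 60, 27 and 18 genes, none of them among the 8.

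For the core cholinergic pair the estimates were near 0 and the intervals narrow. The log2 fold change of Lhx8 was -0.08 ± 0.15 (SE) for cocaine against saline, with a 95% interval of -0.40 to 0.25. For Isl1 it was 0.09 ± 0.17, with an interval of -0.27 to 0.46, and for AI606473 it was -0.04 ± 0.18, with an interval of -0.43 to 0.35. Against the yoked group the same genes gave -0.02, -0.02 and -0.04. An interval that reaches 0.46 leaves room for a change of that size, so equality is not shown. Zic1 (0.20 ± 0.16, interval -0.15 to 0.55) and Zic4 (0.01 ± 0.17, interval -0.35 to 0.37) were estimated as closely. For Gbx2 the interval ran from -2.81 to 1.68, which is too wide to say whether it differed.

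Nkx2-1 gave the smallest unadjusted p of the 8. For cocaine against yoked its log2 fold change was 0.47 ± 0.20 (SE, 95% interval 0.04 to 0.90), with an unadjusted p of 0.0353 and an adjusted p of 0.9997, 232nd of 14989 genes by p. All 3 cocaine libraries were above all 3 yoked libraries. One of the 8 genes thus had groups that did not overlap in this comparison, where 6.99% of all genes had. Replicate 2 of the cocaine group set the size: without it the log2 fold change was 0.17. For yoked against saline the value was -0.27 ± 0.20 (interval -0.70 to 0.16), the groups again did not overlap for 1 of 8 genes, and 7.28% of all genes were so. For cocaine against saline none of the 8 had separate groups, where 10.5% of all genes had.

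The estimates for Lhx6 with cocaine were 0.33 ± 0.26 (SE) against saline and 0.38 ± 0.26 against yoked, both with intervals that include 0 (-0.23 to 0.88 and -0.17 to 0.94) and overlapping groups. Replicate 2 of the cocaine group again held the highest level. Without it the values were 0.10 against saline and 0.15 against yoked. With 1 library left out at a time, both estimates stayed positive (0.10 to 0.60 and 0.15 to 0.59). Without the second replicate of each group, a setting chosen after seeing the data, the value against yoked was -0.03. The summed markers of other interneurons were 32.5 to 41.1 CPM with saline, 44.2 to 63.1 CPM with cocaine and 41.7 to 59.7 CPM in the yoked group; their part in the Lhx6 values was not tested. A joint test over the 3 groups gave unadjusted p-values from 0.101 (Nkx2-1) to 0.973 (AI606473), with adjusted p-values of 0.9995 for all 8 genes, and it called 0.0% of all genes, with 2.8% at an unadjusted p of 0.05.

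**Figure D5:**
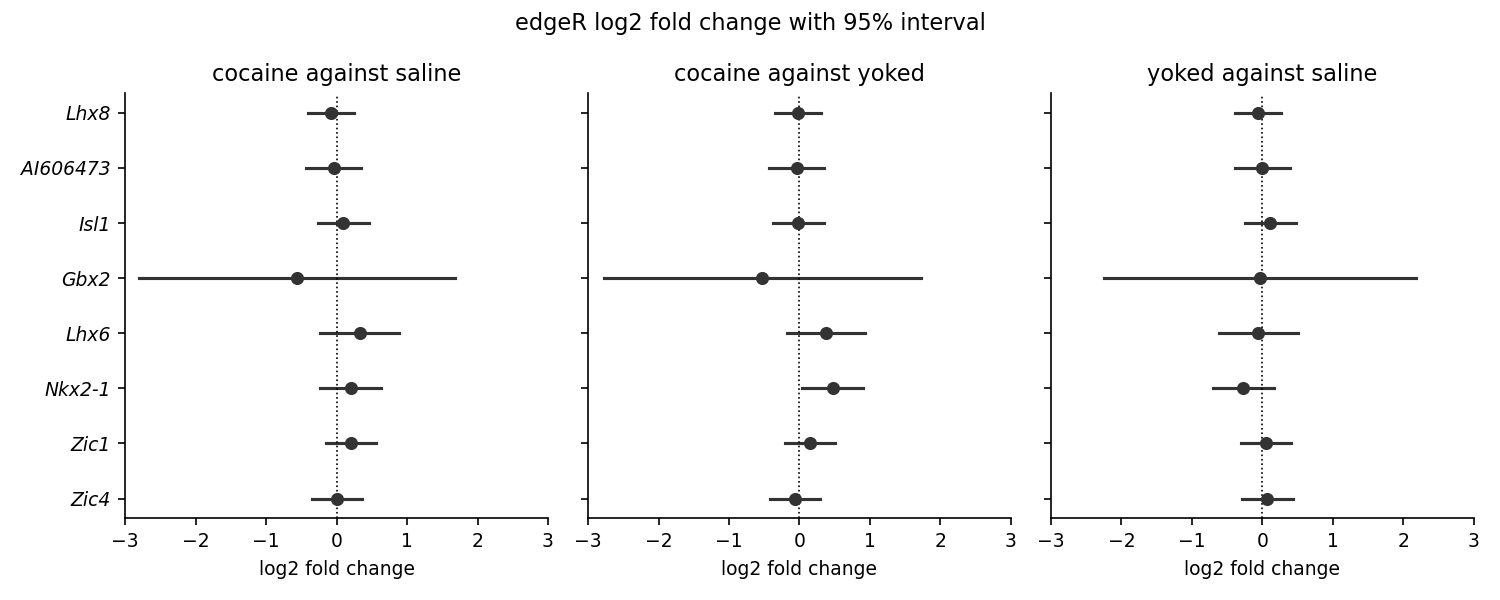
edgeR log2 fold change with its 95% interval for each of the 8 genes in the 3 comparisons of treatment groups. All intervals include 0 except that of Nkx2-1 for cocaine against yoked (0.04 to 0.90, adjusted p = 0.9997), and the interval of Gbx2 is the widest.

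The relatives of these genes gave no call either. In the LIM homeodomain, cofactor, Gbx, Nkx, Zic, ventral forebrain and cholinergic lists 0 genes passed the adjusted test in any comparison. For cocaine against saline, 20 of 24 tested ventral forebrain factors had a positive estimate (median log2 fold change 0.23), where 50.6% of all genes had one. The smallest p among them was that of Dlx5, at 0.78 ± 0.20 (SE, unadjusted p = 0.00181, adjusted p = 0.850). Against yoked, Dlx5 gave 0.51 ± 0.20 and 13 of the 24 were positive. The comparisons share the cocaine libraries, so these are not separate lines of evidence. For yoked against saline 19 of the 24 were positive (median 0.14), where 47.9% of all genes were, and Sox6 had the smallest p (1.06 ± 0.57). In both comparisons with saline the summed markers of other interneurons, given above, were lower in all 3 saline libraries than in any library of the other group; their part in these estimates was not tested.

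Of the 7 cholinergic genes, 5 had a negative estimate for cocaine against saline, Ache having the smallest p (-0.43 ± 0.21, SE, unadjusted p = 0.0635, adjusted p = 0.850). Slc18a3 led against yoked (-0.45 ± 0.29). In the LIM homeodomain list Lhx9 had the smallest p with cocaine against saline (-3.62 ± 1.93) and against yoked (-3.50 ± 1.94), on at most 1.02 CPM in any captured library. In the Zic list the smallest p belonged to Zic1 for cocaine against saline, and to Zic2 for cocaine against yoked (-0.45 ± 0.42) and yoked against saline (0.58 ± 0.42). Among the LIM cofactors it belonged to Rlim, Lmo2 (0.43 ± 0.24 against yoked) and Ssbp4 in turn, in the Nkx list to Nkx2-1 and, for yoked against saline, Nkx2-2 (2.11 ± 1.30), and in the Gbx list to Gbx2 and then Gbx1 (1.05 ± 1.23).

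The 8 genes differed in how steady they were across the captured libraries. Over the 9 the coefficient of variation was 9.78% for Lhx8, 11.1% for Zic1, 11.2% for Isl1, 12.7% for Zic4 and 14.7% for AI606473. All were below the median of 19.98% over 10247 genes with at least 5 CPM, a set not matched to them for level. It was 21.0% for Nkx2-1, 26.2% for Lhx6 and 50.4% for Gbx2, which has few reads. Replicate 2 of the cocaine group, the deepest library, was the highest for Lhx6, Nkx2-1 and Zic1 and the lowest for AI606473 and Gbx2.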

How the data were processed

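The authors aligned reads to mm10 with STAR 2.0.0e and counted them per gene with HTSeq, per the submitters' processing notes; the annotation, strand setting and filters are not given in the sources used here. The deposited values are raw counts for 32531 genes in 10 libraries; rows that name no gene were left out of totals. Of all reads listed, 36.3% to 57.1% in captured libraries and 35.4% in the input were not unique and took no part. CPM and log2 ratios were computed from the counts with Python 3.11.15. Ratios to the single input library have no test.

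Treatment groups were compared with edgeR 4.0.16 (R 4.3.3; TMM scaling, filter at 10 counts and a total of 15, quasi-likelihood test, Benjamini-Hochberg adjustment) in 1 fit over 9 libraries with 6 residual degrees of freedom. Alternatives were DESeq2 1.42.0, no filter, each library left out, a replicate block, other totals and other added counts. Nothing says that replicates are separate animals, so p-values measure the spread between libraries, which may be technical. Intervals on reads cover counting error only.

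Same-numbered saline and yoked libraries deviated together (r = 0.287, 0.197 and 0.178), so by the rule used here the numbers pair them, from the data alone. With cocaine the values were 0.265, 0.073 and 0.049 against saline, and 0.244, 0.073 and 0.221 against yoked, so not every pair exceeded 0.1. The main test did not use the replicate numbers. The replicate block did, and it called 0 genes in each comparison.

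The genes and lists were chosen with earlier results of these data known. Named were all 8 genes; in each list the called genes or the gene of smallest p, and against the input up to 3 highest and 3 lowest; the 3 nearest profiles; and neighbouring genes. Some genes of these lists are not reported here. Sequences and positions are from RefSeq (GRCm38.p6); all 8 symbols matched.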

Additional observations from a re-analysis of the deposited data

How the results depend on the processing

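Over all alternatives run, 200 of 240 treatment fold changes of the 8 genes kept their sign and 40 changed it, and none passed the adjusted test under either. DESeq2, the replicate block and each left-out library called 0 genes in every comparison, while testing without a filter on low counts called 60 genes between cocaine and saline, 27 between cocaine and yoked and 18 between yoked and saline. The replicate block gave a log2 fold change of 0.2695 for Gbx2, yoked against saline, and changed no call. The same value for AI606473 was 0.0033 by DESeq2 and 0.0076 without the filter. Using replicates 1 and 3 alone, an alternative chosen after seeing the data, gave with cocaine over saline 0.0015 (AI606473), -0.0476 (Isl1) and -0.1153 (Nkx2-1), with cocaine over yoked 0.0368 (Lhx8), 0.0814 (AI606473), -0.03 (Lhx6) and 0.0632 (Zic4), and with yoked over saline 0.0488 (Lhx6) and -0.0358 (Zic4). Leaving out 1 library at a time, the log2 fold change of cocaine over saline ranged from -0.2405 to 0.0668 for AI606473, -0.0424 to 0.2662 for Isl1, -1.0234 to 0.1731 for Gbx2, -0.0882 to 0.3474 for Nkx2-1 and -0.0554 to 0.0494 for Zic4. Cocaine over yoked ranged from -0.1166 to 0.0356 for Lhx8, -0.2399 to 0.0676 for AI606473, -0.0497 to 0.0254 for Isl1, -0.1972 to 0.0728 for Zic4 and 0.1736 to 0.6167 for Nkx2-1. Yoked over saline ranged from -0.1072 to 0.0408 for Lhx8, -0.0599 to 0.0924 for AI606473, -0.0225 to 0.2861 for Isl1, -0.45 to 0.6975 for Gbx2, -0.2345 to 0.2176 for Lhx6, -0.0455 to 0.1285 for Zic1 and -0.0501 to 0.2032 for Zic4. Except for Nkx2-1, cocaine over yoked, these ranges and the values from replicates 1 and 3 are those that changed sign. Cocaine over saline kept its sign for Lhx8 (-0.1319 to -0.0119), Lhx6 (0.0984 to 0.5983) and Zic1 (0.1053 to 0.3078). Cocaine over yoked also kept it for Gbx2 (-0.9894 to -0.14), Lhx6 (0.1462 to 0.5861) and Zic1 (0.0531 to 0.2547). Yoked over saline kept it for Nkx2-1 (-0.3146 to -0.1967). The cause of the sign changes was not tested. Of 56 ratios to the input, 54 moved by less than 1 SD, among them Gbx2, at 2.88 with 2 counts added; the number of the 8 genes at least 4-fold above the input in all 3 saline libraries was 6 or 7; with totals that leave out the 50 genes highest in the input, which shifts the median of all genes by -0.13, those of Nkx2-1 and Zic4 were 3.66 and 4.10. Gbx2 rests on 1 input read and 6 to 42 captured reads, and its counting intervals in saline replicates 2 (0.0701 to 0.416 CPM) and 3 (0.719 to 1.35 CPM) do not overlap. All ratios rest on 1 input library.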

Other observations

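A second non-coding gene lies beside a lineage factor and was enriched with it. E030019B13Rik, annotated in RefSeq as Sfta3-ps, is separated from Nkx2-1 by 2514 bases. It stood at 14.1 to 22.9 CPM in the 9 captured libraries and at 2.22 CPM in the input, a saline ratio of 7.48-fold, and the treatment groups overlapped. Its reads per 100 Nkx2-1 reads ran from 10.4 to 25.9 after capture and were 34.3 in the input, whereas AI606473 per 100 Lhx8 reads was lower in the input, at 8.22, than in every captured library. Between Lhx6 and its neighbours the picture differed again: Rbm18 had a saline ratio of 1.76, and Morn5 had 8 input reads.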
